A study of Mus musculus with 3 samples.

Results

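Occupancy of the transcription factor EBF1 was described at 6 genes that encode regulators of the B lineage: Ebf1, Pax5, Foxo1, Erg, Ciita and Nfatc1. A region was taken as a member when 1 of these 6 was the protein-coding gene whose body lay nearest to its centre, with a limit of 100 kb. This rule used positions only. It found 22 of the 4116 deposited regions, and after merging of overlapping regions 11 of 2121 loci, with at least 1 locus for each of the 6 genes. The data are ChIP-seq, in which DNA bound by a protein is recovered with an antibody and sequenced. All cells were pro-B cells grown from c-kit-positive lymphoid progenitors of the fetal liver of C57BL/6 Ebf1-/- mouse embryos (E16.5), with OP9 feeder cells during differentiation. All carried retroviral rtTA-Advanced with a tdTomato marker and a doxycycline-dependent FLAG-tagged NICD1, the active intracellular part of the receptor Notch1, and all received 1 µg/ml doxycycline for 6 hours without feeder cells. They differed in a further retrovirus with a GFP marker, which encoded Strep- and FLAG-tagged EBF1, either wild type (EBF1wt) or with the substitution E271A (EBF1E271A). Cells of the EBF1-expressing human B cell lymphoma line BJAB were added at 10 mouse cells per human cell, as the source of the spike-in chromatin. There was 1 ChIP library for each protein, and the 1 input library, from cells with EBF1wt, has no value used here.

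EBF1 is a DNA-binding protein without which B cell development stops at the progenitor stage. It acts in a network with E2A, FOXO1 and PAX5, in which several of the factors act on each other's genes, and PAX5 then keeps the cells in the lineage. Notch1 signalling drives lymphoid progenitors towards the T lineage and opposes the B lineage program. In the usual notation E271A replaces a glutamate of the protein by an alanine. The design sets the occupancy of the substituted protein beside that of wild-type EBF1 while NICD1 is induced.

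No region overlapped a listed promoter of these genes. The RefSeq promoter table (build GRCm38.p6, 250 bases before to 50 after a start) held 7 windows for 4 of the 6 genes, which were Ebf1, Pax5, Erg and Foxo1, and 0 deposited regions overlapped any of them. Across all genes, 179 of the 2071 loci on chromosomes covered by the table (8.64%) overlapped 1 of its 32817 windows. The bases before the start are shown for 3 genes, since the distances below are measured from these starts. Foxo1 is shown because it alone of the 4 genes held the EBF1 motif in its window, Pax5 because its start was the nearest to a locus, and Erg because its locus had the highest values. Each run is 5′ to 3′ on the strand of the gene and ends at the base before the start. Capitals mark matches to the EBF1 motif CCCNNGGGA, to its core CCCNNGGG or to the RBPJ motif TGGGAA, searched on both strands. RBPJ is the DNA-binding partner of NICD1. The first motif contains the second, and the third can overlap the first.
Foxo1, + strand, chr3:52268087-52268336: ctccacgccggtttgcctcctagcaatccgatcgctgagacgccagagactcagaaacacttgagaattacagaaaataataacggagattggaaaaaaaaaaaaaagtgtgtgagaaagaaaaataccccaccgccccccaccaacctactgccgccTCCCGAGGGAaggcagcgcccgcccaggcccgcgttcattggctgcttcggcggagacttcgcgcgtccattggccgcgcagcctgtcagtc
Pax5, - strand, chr4:44710695-44710944: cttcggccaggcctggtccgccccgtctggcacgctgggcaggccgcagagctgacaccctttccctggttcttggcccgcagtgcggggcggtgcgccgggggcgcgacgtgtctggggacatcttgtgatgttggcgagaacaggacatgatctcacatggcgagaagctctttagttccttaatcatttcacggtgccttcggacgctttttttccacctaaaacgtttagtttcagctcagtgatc
Erg, - strand, chr16:95459349-95459598: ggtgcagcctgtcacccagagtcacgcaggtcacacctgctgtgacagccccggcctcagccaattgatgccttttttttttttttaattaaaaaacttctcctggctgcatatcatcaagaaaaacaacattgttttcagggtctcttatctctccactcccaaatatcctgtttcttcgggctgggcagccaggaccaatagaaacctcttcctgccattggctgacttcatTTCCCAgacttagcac

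The Foxo1 window matched CCCNNGGGA on both strands, in 1 stretch of overlapping matches. That motif was found in 6.56% of all promoter windows, its core in 13.7% and the RBPJ motif in 25.6%. The Pax5 window held none of the 3 motifs, the Erg window shown held 1 RBPJ motif, and another Erg window held 1 core. Of the 2 windows of Ebf1, 1 held an RBPJ motif. These matches describe letters of the reference sequence and are not measured sites. The sequences of the 11 loci themselves were not used here.

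Scaled counts are read counts per 300 bp region multiplied by 1 factor per library. Loci are named by gene, by a centre inside or outside the gene body, and by a letter in order of position where there are several. Of the 11 loci, 8 lay inside a gene body, and 1145 of all 2121 loci (54.0%) did so. All positions are GRCm38. Exon positions were not used here. Since Ebf1-/- cells received an EBF1-coding retrovirus, reads of that insert cannot be told apart from reads of the Ebf1 gene wherever a region overlaps an exon. Unscaled, the loci held 64 to 262 counts in the EBF1wt library and 157 to 764 in the EBF1E271A library. Over all regions the median was 91 and 209 counts, with sums of 515897 and 1105818. Most regions overlap another and 31 repeat another exactly, so these sums count many reads more than once and are not totals of reads. As each protein has a single library, differences could not be set against a spread of replicates, and none was tested. Intervals of 95% are exact Poisson intervals for levels and exact binomial (Clopper-Pearson) intervals for ratios. Both kinds reflect counting error alone. Every ratio divides the EBF1E271A value by the EBF1wt value.

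**Figure D1:**
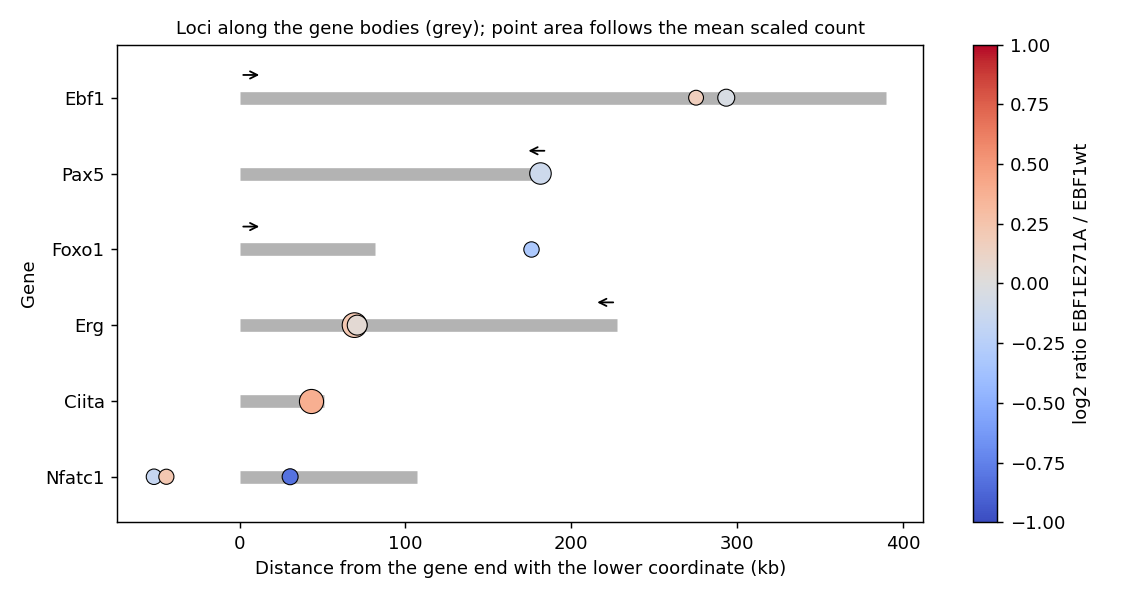
Position of the 11 loci (points) along the 6 gene bodies (grey bars), in kb from the gene end with the lower coordinate. Colour gives the log2 ratio of EBF1E271A over EBF1wt, point area follows the mean scaled count, and arrows give the direction of transcription for the 4 genes in the promoter table. The Pax5 loci sit within 5.33 kb of its start, and the bluest point is the Nfatc1 locus inside the gene (log2 ratio -0.82).

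At Ebf1, which encodes EBF1 itself, both loci lay deep inside the gene. Locus A (chromosome 11, 44893159 to 44893458) was 273 kb past the nearer RefSeq start, and locus B (chromosome 11, 44911362 to 44911661) was 291 kb past it, in a gene of 389.997 kb. At locus A the scaled count was 101 with EBF1wt and 114 with EBF1E271A, giving a ratio of 1.13 (0.841 to 1.52). At locus B it was 169 with EBF1wt and 164 with EBF1E271A, giving a ratio of 0.972 (0.773 to 1.23). Locus A was thus among the weak loci of the series, above 8.49% of all loci in EBF1wt and 36.6% in EBF1E271A, while locus B was above 63.0% and 65.7%. At both loci the interval of the ratio held 1 and the median ratio of all loci, 0.896.

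At Pax5, which encodes the commitment factor of the B lineage, the 2 loci lay 0.792 kb apart just past the start of the gene. Locus B (chromosome 4, 44706010 to 44706309), 4.54 kb past the start, had 330.45 for EBF1wt and 304.9 for EBF1E271A. Locus A (chromosome 4, 44705218 to 44705517), 5.33 kb past the start, had 213 for EBF1wt and 194 for EBF1E271A. Locus B exceeded 92.6% of all loci in EBF1wt and 92.9% in EBF1E271A, and locus A exceeded 76.7% and 76.3%. Both loci thus held nearly the same place in the 2 libraries. Their ratios were 0.923 (0.783 to 1.09) and 0.907 (0.738 to 1.12), and both intervals held 1 and the median ratio of all loci. These were the 2 loci of the 6 genes nearest to a listed start.

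At Foxo1, which encodes a forkhead factor that acts with EBF1 in early B cells, the locus lay far beyond the gene. It was 93.9 kb from the gene body and 176 kb past the start (chromosome 3, 52443823 to 52444122), close to the limit of the rule. The nearest annotated gene of any kind was the pseudogene Gm34303 at 18.2 kb, and the next protein-coding gene, Maml3, was 339 kb away. EBF1wt had a scaled count of 134 and EBF1E271A of 108, which gives a ratio of 0.805 (0.617 to 1.06). The values were below the medians of all loci, 144 and 131, and the interval of the ratio held 1. Beyond the limit, 1 further locus had Foxo1 as its nearest protein-coding gene, at 289 kb, where EBF1wt had 279.9 and EBF1E271A had 259, with the ratio at 0.927 (0.775 to 1.11).

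At Erg, which encodes an ETS factor of stem cells and early lymphoid progenitors, 2 loci lay 1.61 kb apart inside the gene. Locus A (chromosome 16, 95428301 to 95428600) had 414 for EBF1wt (366 to 468) and 483 for EBF1E271A (449.6 to 519). It had the highest value of the 11 loci in both libraries, above 95.9% and 97.7% of all loci. Its ratio was 1.17 (1.01 to 1.35), an interval above 1 and above the median ratio of all loci. Locus B (chromosome 16, 95429913 to 95430212) had 258 with EBF1wt and 268 with EBF1E271A, and its ratio was 1.04 (0.865 to 1.25), an interval that held both. The gene has 3 listed starts, and the loci lay 30.9 and 29.3 kb past the nearest and 158 and 157 kb past the farthest.

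At Ciita, which encodes the transactivator of MHC class II genes, the only locus had the highest ratio of the 11. It lay inside the gene (chromosome 16, 10522853 to 10523152), 43.0 kb from the end with the lower coordinate and 8.06 kb from the other, and 7.21 kb from the neighbouring gene Dexi. The scaled count was 368 for EBF1wt (323 to 419) and 482 for EBF1E271A (448 to 517), which do not overlap. The ratio was 1.31 (1.13 to 1.52), above 1 and above the median of all loci. In EBF1E271A this locus stood level with Erg locus A, and in EBF1wt, where it was lower than that locus, the intervals of the pair overlapped.

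At Nfatc1, which encodes a calcium-regulated factor activated by antigen receptor signalling, the locus inside the gene had a lower ratio than the 2 outside it. The locus inside the gene (chromosome 18, 80636499 to 80636798), 30.4 kb from the end with the lower coordinate, had 176 for EBF1wt (144 to 211) and 99.3 for EBF1E271A (84.4 to 116). Its ratio was 0.566 (0.441 to 0.728), the lowest of the 11, with an interval below 1 and below the median of all loci. Every deposited region exceeds 100 in at least 1 library. This locus did so in EBF1wt alone, so it could be listed only with a ratio below 1. Outside locus A (chromosome 18, 80554411 to 80554710), 51.6 kb from the gene body, had 131 and 118, a ratio of 0.896 (0.689 to 1.18). Outside locus B (chromosome 18, 80561881 to 80562180), 44.2 kb from the gene body, had 106 and 124, a ratio of 1.17 (0.883 to 1.57). Both outside loci had intervals that held 1, and neither is close to a protein-coding gene: the next after Nfatc1 was Ctdp1, at 75.8 and 83.3 kb. Other annotated genes, Gm2176 and Gm41790, lay 10.0 and 9.79 kb from them.

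**Figure D2:**
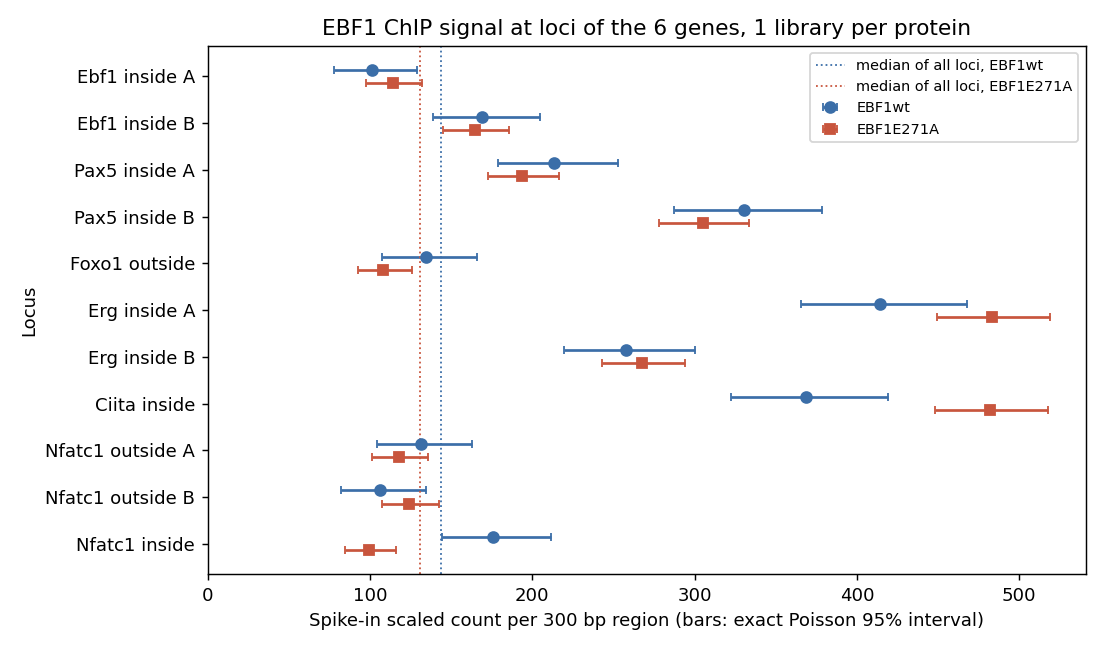
Scaled count per 300 bp region at each of the 11 loci for EBF1wt (circles) and EBF1E271A (squares), 1 library each, with exact Poisson 95% intervals; dotted lines mark the medians of all loci, 144 and 131. The bars of the proteins are apart at the Ciita locus (368 and 482) and at the Nfatc1 locus inside the gene (176 and 99.3).

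In order of level, the EBF1wt library ran from Erg A and Ciita through Pax5 B, Erg B, Pax5 A, Nfatc1 inside, Ebf1 B, Foxo1, Nfatc1 outside A and Nfatc1 outside B to Ebf1 A. The intervals of every 2 neighbours in this order overlapped. In the EBF1E271A library, which held more counts, the first 5 places were taken by the same loci in the same order. There the intervals parted at 3 steps: between Ciita (482) and Pax5 B (304.9), between Erg B (268) and Pax5 A (194), and between Ebf1 B (164) and Nfatc1 outside B (124). The locus inside Nfatc1 stood sixth in EBF1wt and last in EBF1E271A. Of the 11 loci, 7 lay above the median of all loci in EBF1wt and 6 in EBF1E271A.

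Of the 11 loci, 9 had a ratio above the median ratio of all loci and 2, Foxo1 and Nfatc1 inside, below it. With the other region of each locus, 7 lay above the median. At Nfatc1 outside A and both Pax5 loci the ratio differed from that median by at most 0.04 on the log2 scale. By a fold rule of 1.5, 1 of the 11 loci was lower in EBF1E271A (Nfatc1 inside), against 14.3% of all loci, and 0 were higher, against 3.25%. The ratio was below 1 at 6 loci and above 1 at 5, with 67.2% of all loci below 1. The interval lay above the median ratio of all loci at 2 loci (Ciita and Erg A), against 17.3% of all loci, and below it at 1 (Nfatc1 inside), against 16.7%. The median log2 ratio was -0.04 over the 11 loci, with a binomial interval of the median from -0.31 to 0.23. Over all loci it was -0.16 (-0.18 to -0.14). These 2 intervals come from the order of the loci and not from counting error. They treat loci as independent, although the 11 lie at 6 chosen genes and some are close together, so they describe spread only. The member median lay 0.12 above that of all loci, which lies within the spread of the 11, and the difference was not tested. Whether a ratio lies above or below 1 depends on the spike-in factors: if the libraries are brought to equal sums instead, every log2 ratio rises by 0.22, the median of all loci becomes 0.06, and only 2 member loci, Foxo1 and Nfatc1 inside, stay below 1. Positions relative to all loci do not move with the scale.

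**Figure D3:**
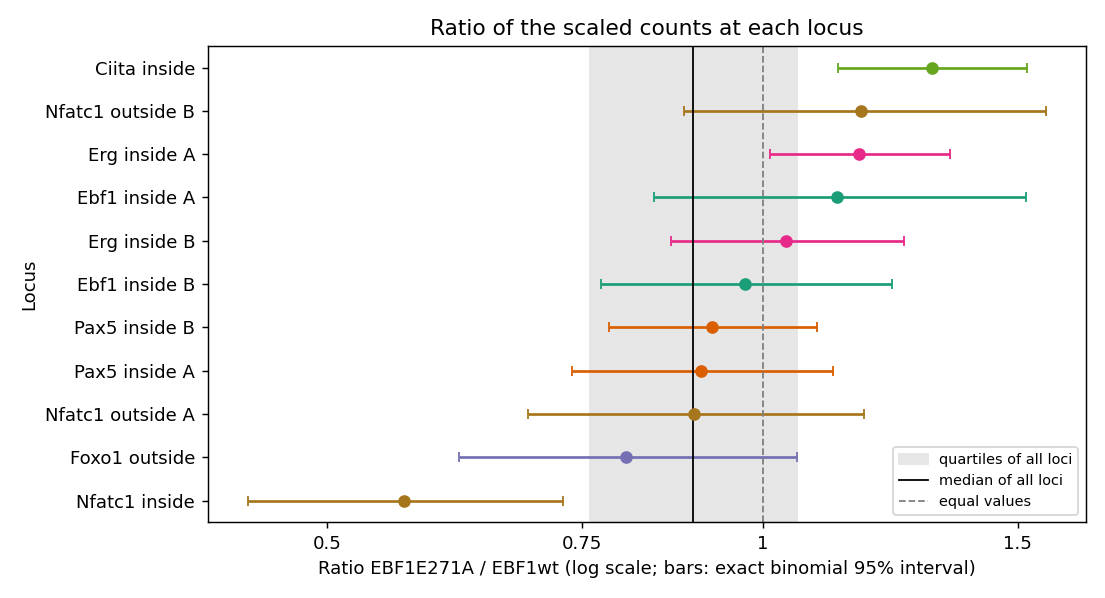
Ratio of EBF1E271A over EBF1wt (log axis) at the 11 loci in order of size, coloured by gene, with exact binomial 95% intervals; the grey band spans the quartiles of all loci (0.760 to 1.06) and the black line is their median, 0.896. Ciita (1.31) and Erg A (1.17) have intervals to the right of the black line, and Nfatc1 inside (0.566) lies to its left.

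Set beside loci of like level, Ciita had a ratio near the upper end. All loci were divided into 10 groups by the mean value of both libraries, a choice made after the values were seen. Of the 212 loci in the strongest group, which had a median ratio of 0.919, only 1 had a higher ratio than Ciita, and 12 had a higher one than Erg A. Pax5 B, in the same group, stood in its middle, with 99 loci higher and 112 lower. Of the 212 loci in the group of Nfatc1 inside, which had a median ratio of 0.931, 6 had a lower ratio. As that locus exceeded 100 in EBF1wt alone, it was on the list only through the library in which it was high, and its place is a description. The other loci had between 25 and 142 loci of their group of 212 above them. These are places within 1 pair of libraries and carry no error between cultures.

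**Figure D4:**
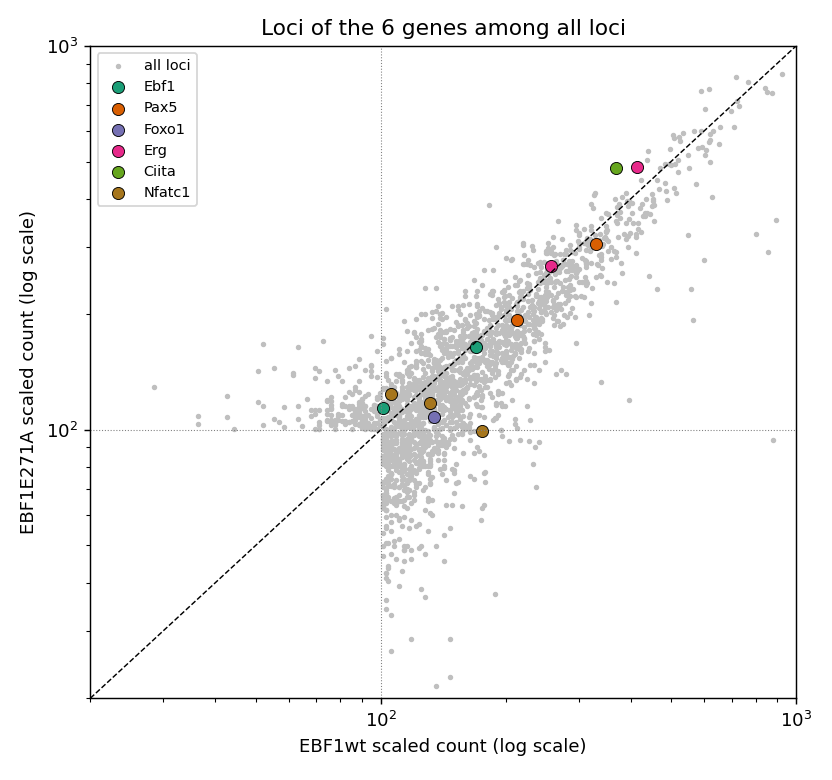
Scaled counts of EBF1wt (x axis) and EBF1E271A (y axis), both on log scales, for all loci (grey) and those of the 6 genes (coloured); the dashed line marks equal values, dotted lines the value of 100, and 13 loci outside 20 to 1000 are not drawn. Ciita and Erg A lie above the dashed line at its upper end, and the Nfatc1 locus inside the gene lies below it.

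Loci of 1 gene can be compared without the spike-in scale, since the factor of each library cancels in a ratio of 2 ratios. There were 6 such pairs, and their exact conditional 95% intervals compare these 2 libraries only. At Nfatc1, outside B exceeded the locus inside the gene 2.07-fold in ratio (1.41 to 3.05) and outside A exceeded it 1.58-fold (1.09 to 2.297). Both of these rest on the locus inside Nfatc1, which exceeded the list's limit of 100 in EBF1wt alone (99.3 in EBF1E271A) and so could enter the list only with a ratio below 1. The 2 outside loci of Nfatc1 had a ratio of ratios of 0.766 (0.514 to 1.14), whose interval held 1. At Pax5 the ratio of ratios, A over B, was 0.983 (0.752 to 1.29), at Erg 1.12 (0.887 to 1.42) and at Ebf1 1.16 (0.793 to 1.70), and these 3 intervals held 1 as well. Differences within those bounds are not excluded by the counts. Close spacing was uncommon in the series: 87 loci (4.10%) had another within 2 kb, and the Pax5 and Erg loci supplied 4 of them. Over the 44 such neighbouring pairs of all loci, the log2 ratios differed by a median of 0.25, against 0.02 at Pax5 and 0.17 at Erg. The 44 include the Pax5 and Erg pairs and were not matched for level, and counting error is larger at weaker loci. Of the 1635 protein-coding genes with a locus, 16.5% had at least 2 and 4.10% at least 3. Among the 6 genes, 4 had at least 2, and Nfatc1 had 3. As the 6 genes were chosen with earlier results of these data known, these numbers are a description.

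Each of the 11 loci consisted of 2 overlapping regions, as did 94.1% of all loci. The 2 regions of a locus began between 1 base (Ciita) and 84 bases (Foxo1) apart, with a median of 19 over the 11 loci and 16 over all such loci. Values and ratios above are those of the region with the higher mean. The ratios of the 2 regions of a locus differed by at most 1.053-fold. Every deposited region exceeds 100 in at least 1 library, so which loci near that value appear at all, and with which ratios, depends on this limit. Of the 22 regions, 17 exceeded 100 in both libraries (77.3%, against 69.3% of all regions), 3 in EBF1wt alone and 2 in EBF1E271A alone. Those in EBF1wt alone were both regions inside Nfatc1, with 99.3 and 98.0 for EBF1E271A, and 1 region of Foxo1, with 94.2. Those in EBF1E271A alone were 1 region of Ebf1 A, with 98.0 for EBF1wt, and 1 of Nfatc1 outside B, with 99.6.

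Other transcription factor genes of B cells and their progenitors had ratios in a like range. Of 60 such genes, listed from textbook knowledge, 20 had at least 1 locus by the same rule, with 24 loci in all. Ratios were under 1 at 14 loci and over 1 at 10, from 0.606 to 1.29, with 67.2% of all loci below 1. The median log2 ratio was -0.06, with an order-based interval of the median from -0.25 to 0.15 that describes the spread of these loci. By the fold rule of 1.5, 1 of the 24 loci was lower, against 14.3% of all loci. It lay near Id3, which encodes an inhibitor of E2A proteins, with 225 for EBF1wt and 136 for EBF1E271A. None was higher. The interval lay above the median ratio of all loci at 4 loci and below it at 2. Those above were loci of Nfatc2, Pou2f1, Pou2f2 and Tcf4, and those below were loci of Id3 and Sox4. Pou2f2 (91.7 for EBF1wt, 115 for EBF1E271A) and Tcf4 (88.5 and 114) exceeded the list's limit of 100 in EBF1E271A alone. They could be listed only with a ratio above 1. Sox4 (139 and 93.0) exceeded that limit in EBF1wt alone, so it could be listed only with a ratio below 1. The strongest of the 24 loci was 37.3 kb from Nfatc2, which encodes a relative of NFATc1. It had 522 for EBF1wt and 579 for EBF1E271A and a ratio of 1.11 (0.978 to 1.26). It was stronger than any locus of the 6 genes in both libraries. Next came Egr1, an immediate early factor gene (ratio 0.997, 0.843 to 1.18), Satb1, a chromatin organiser gene (0.838, 0.695 to 1.01), and Runx1, a factor gene of blood stem cells and lymphocytes (0.887, 0.732 to 1.08). They were followed by Foxp1, a forkhead factor gene (1.08, 0.885 to 1.31), and Bcl6, a repressor gene of germinal centre B cells (0.956, 0.776 to 1.18). The interval of each of these 5 held the median ratio. The Foxp1 locus lay inside the gene and the Egr1 locus 1.38 kb from the gene body. Those of Satb1, Runx1 and Bcl6 were far off, at 70.9, 95.9 and 87.9 kb.

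For the strongest locus of each gene, the 2 loci with the most similar pair of values were found by distance in log2 scaled counts over the 2 libraries. These were loci inside Clec16a and 32.8 kb from Chst15 for Ebf1, and inside Rhobtb1 and Tns3 for Foxo1. For Nfatc1 they lay 0.739 kb from Pmepa1 and 0.268 kb from Ccdc171. For Pax5 the nearest lay inside Dnaic2 (332 and 303). For Erg they lay 27.4 kb from Parp1 (436 and 505) and 18.5 kb from Syf2. For Ciita they were that Syf2 locus (422 and 448) and a locus inside Ell3 (389 and 413). For the loci named, the distance was at most 0.094 for Ebf1, Pax5, Foxo1 and Nfatc1, while Ciita had none closer than 0.223 among the loci searched. Likeness over 2 libraries describes level and ratio only.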

How the data were processed

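EBF1 ChIP-seq of 2 ChIP libraries was used, 1 per protein. The values that the authors deposited are a coverage signal, named scaled counts per the file headers, which per the labels were normalized with human spike-in chromatin. Tools listed in the submitters' processing notes are MACS2 2.2.7.1, Bowtie2 2.3.5.1, deepTools 3.3.2 and 3.5.0, bedtools 2.27.0 and SAMtools 1.10, with the build GRCm38. Their roles, the calling of the regions and the scale factors are not given in the sources used here. Every value was a whole multiple of 1 step (1.5811 for EBF1wt, 0.6325 for EBF1E271A, tolerance 0.001 counts, 100% of values), and dividing by it gave unscaled counts. Intervals take these factors as free of error, and PCR copies are not separate molecules. A region was assigned to the nearest of 21900 RefSeq protein-coding gene bodies (GRCm38.p6), overlapping regions were merged, and the region with the higher mean stood for its locus. The positions in the separate list equalled those of the table. Start positions were taken as counted from 0 and are printed from 1. Every locus of the 6 genes is named. Of the further list, the 6 genes with the strongest loci, the 1 past the fold rule and those with an interval apart from the median ratio are named. The 1 past the fold rule, Pou2f1, Pou2f2, Tcf4 and Sox4 were named after their values were seen. One locus that the rule on likeness names is not reported here. The members and lists were chosen with earlier results of these data known. Python 3.11.15, pandas 2.3.3 and SciPy 1.17.1 were used. The ratios and intervals were tested on simulated independent Poisson counts, without the limit of 100 and without PCR copies. That test checks the calculation, not whether counting error is the only error in these libraries. Alternatives were other scales, the other region of a locus or the mean of both, a pseudocount of 10, a limit of 10 kb, a 2-fold rule and leaving out each gene.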

Additional observations from a re-analysis of the deposited data

How the results depend on the processing

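The median log2 ratio of the 11 loci, -0.04, lay close to 0 and changed sign under several settings. It was 0.18 with equal sums over all regions, 0.11 with equal sums without the region of highest value, 0.054 without Pax5, and 0.0066 without Foxo1, without Nfatc1, with genes within 10 kb (8 loci), and with only the 10 loci above 100 in both libraries. It stayed below 0 with the region of the lower mean, the mean of both regions, every region counted, a pseudocount of 10, and without Ebf1, Erg or Ciita, from -0.12 to -0.04. The 1 locus past the fold rule of 1.5 became 2 with equal sums over all regions (1 lower, Nfatc1 inside, and 1 higher, Ciita at 1.53). It became 0 with a 2-fold rule and 0 among loci above 100 in both libraries, since the locus inside Nfatc1 has 99.3 for EBF1E271A. Of the ratios of single loci, 53 values under the alternatives stayed within their interval and 2 moved out of it, Ciita (1.53) and Erg A (1.36) with equal sums. Equal sums without the highest region and the restriction to loci above 100 were chosen after seeing the data. No paired analysis was possible because each protein has 1 library. Depth limits the weaker loci most: at 64 counts, the ratio of Ebf1 A has an interval from 0.841 to 1.52.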
